A study of Mus musculus with 6 samples.

Results

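The insulin-like growth factor (IGF) axis was examined in epididymal white adipose tissue (eWAT, a visceral fat depot of male mice) through 10 genes: the ligand gene Igf1, the growth hormone receptor gene Ghr, the receptor genes Igf1r and Igf2r, and 6 genes of IGF-binding proteins, Igfbp2 to Igfbp7. The genes were taken by name, and each was represented by the array row whose annotation names that gene and no other. All 10 had exactly 1 such row, so 10 of 22180 genes named by the array and 10 of its 41345 rows are described here. The tissue came from 3 wild-type mice (WT 1 to WT 3) and 3 transgenic mice (Tg 1 to Tg 3) that carry the long noncoding RNA Blnc1 as an adipose-specific transgene. The promoter that drives the transgene was not given in the sources used here. All 6 mice were C57BL/6 males of 8 months that ate the high-fat diet D12492 for 21 weeks, so no lean tissue stands beside them, and each array was taken as 1 mouse because the labels call the replicates biological.

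IGF1 is a peptide hormone that resembles insulin. Growth hormone, acting through its receptor and the kinase JAK2, drives its synthesis in liver and in tissues such as fat, and IGF1 signals through the tyrosine kinase receptor IGF1R to the IRS, PI3 kinase and AKT proteins that insulin also uses. Most IGF outside cells is held by IGF-binding proteins, which lengthen its life in the circulation and regulate its access to the receptor until proteases cleave them. In adipose tissue preadipocytes respond to IGF1, mature fat cells respond mainly to insulin, and macrophages and stromal cells are known sources of the ligand.

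None of the 10 genes passed the test between the genotypes in limma, and their measured differences were at most 1.34-fold. Ghr read 1.34-fold and Igfbp5 1.26-fold higher in Tg, Igf2r read 1.19-fold higher in WT, and in these 3 genes the arrays of the genotypes did not overlap. Igfbp3 read 1.34-fold higher in Tg on average, but with overlapping arrays. Igf1 itself read 1.10-fold higher in WT, with overlapping arrays. Of the 10 genes 8 had a higher mean in Tg, beside 47.2% of all rows, and 2, Igf1 and Igf2r, a lower one. The median difference of the 10 was 0.17 on the log2 scale against -0.014 over all rows. All 10 lie at or above the median row signal, for which no share by direction is given. They were chosen with earlier results of these data known, and Tg 1 was the highest array in 6 of them. The count of 8 thus does not test a shift of the family.

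At a Benjamini-Hochberg threshold of 0.05, limma called 0 of 41345 rows (0%) and 0 of the 10 genes, whose adjusted p lay between 0.41 (Ghr) and 0.91 (Igfbp6). At an unadjusted p under 0.05 it gave 2 of the 10 genes, Ghr and Igfbp5, both higher in Tg, and 0 lower. Of all rows 10.3% met that threshold, 4.43% higher and 5.88% lower in Tg. Among rows at or above the median signal 14.5% met it, and with 10 genes a count of 2 is near that share. The groups did not overlap in 3 of the 10 genes, beside 16.7% of all rows and 22.1% of the rows at or above the median signal, where all 10 genes lie. With 10 genes, a count of 3 is near that share. The number of the 10 genes at an unadjusted p under 0.05 was 1 without WT 2 or without Tg 3, beside 7.51% and 8.91% of all rows, and 0 without WT 3 or without Tg 1, beside 7.63% and 8.5%. The groups did not overlap in 7 genes without WT 1, 5 without Tg 2 and 6 without Tg 3, where fewer arrays also leave 31.2%, 27.6% and 26.8% of all rows without overlap.

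The stretches before the start sites of Igf2r, Igfbp5 and Ghr are shown because these are the genes whose arrays were apart. Each is the 250 bases before the start site in the RefSeq table of build GRCm38.p6, read 5′ to 3′ on the minus strand, at the outermost start the table lists for the gene. Capitals mark matches on either strand to TATAAA, to GGGCGG (the core of Sp1 sites), to CCAAT, to TTCNNNGAA (the form STAT factors bind) and to CACGTG (an E-box).
Igf2r, chr17:12769707-12769956: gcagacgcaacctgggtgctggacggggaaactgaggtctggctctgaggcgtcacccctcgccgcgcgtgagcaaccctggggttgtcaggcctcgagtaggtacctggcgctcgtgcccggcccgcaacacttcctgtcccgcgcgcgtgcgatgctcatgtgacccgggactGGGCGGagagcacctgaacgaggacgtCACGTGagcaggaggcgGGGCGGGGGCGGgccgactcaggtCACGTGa
Igfbp5, chr1:72874866-72875115: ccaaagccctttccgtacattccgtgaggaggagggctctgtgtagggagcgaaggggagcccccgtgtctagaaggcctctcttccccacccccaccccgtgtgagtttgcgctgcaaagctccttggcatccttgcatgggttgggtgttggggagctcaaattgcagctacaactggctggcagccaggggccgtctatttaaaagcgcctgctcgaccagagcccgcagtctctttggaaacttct
Ghr, chr15:3583353-3583602: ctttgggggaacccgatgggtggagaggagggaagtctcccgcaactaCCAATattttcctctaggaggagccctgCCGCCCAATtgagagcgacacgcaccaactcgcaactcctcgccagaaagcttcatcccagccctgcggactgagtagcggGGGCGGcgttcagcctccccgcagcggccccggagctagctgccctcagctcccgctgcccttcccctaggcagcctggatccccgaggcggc

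No motif searched was in all 3 stretches. The Igf2r stretch held 3 matches to GGGCGG and 2 to CACGTG, with 27 CpG pairs and 69.2% G or C. That of Ghr held 2 matches to GGGCGG and 2 to CCAAT, 1 of each overlapping, with 17 CpG pairs and 65.6% G or C. That of Igfbp5 held no match to any of the 5 motifs and had 10 CpG pairs and 58.8% G or C.

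Among 32851 stretches of the same length in the table, 32.7% held GGGCGG, 33.8% CCAAT, 12.4% TATAAA, 7.02% TTCNNNGAA and 6.02% CACGTG, and the median was 6 CpG pairs and 52.4% G or C. All 10 genes had a stretch in the table, and Igfbp2 and Ghr had 2 each. CpG pairs were most frequent before Igf1r, with 42, more than in 99.1% of all stretches, and fewest before Igf1, with 5. TATAAA was found before Igfbp4, Igfbp6 and the inner start of Ghr, CACGTG before Igf2r and the outer start of Igfbp2, and TTCNNNGAA before none of the 10 genes. Igfbp2 and Igfbp5 are next to each other among the coding genes of their chromosome, as are Igfbp3 and Igfbp1.

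Before the single genes, 3 arrays need a remark. Tg 2 carried transcripts of the epididymis: 13 measured epididymis genes averaged 5.30 in Tg 2 and between 1.21 and 1.57 in the other 5 arrays. Lcn9, a secreted lipocalin of the epididymis, read 9.87 in Tg 2 and between 0.91 and 1.62 elsewhere. Not all genes of the list followed. Lcn5, Spint4 and Spinkl read 2.15, 0.77 and 0.77 in Tg 2 and were highest in WT 2, Tg 3 and WT 3. Cuzd1 read 6.25 in Tg 2 but also 4.87 in WT 2. Of 8 pericyte and smooth muscle genes, 2 were higher in WT 2 and WT 3 than in every other array: Cnn1 read 7.09 and 8.46 there against 4.07 to 4.77 in the other 4 arrays, and Myh11 8.39 and 9.52 against 7.09 to 7.61. Rgs5, a pericyte gene, was instead lowest in these arrays, with 9.97 and 9.69 against 10.1 to 10.3. The other 5 genes of the list did not set both arrays apart, with Acta2, for example, between 10.5 and 10.8 on every array. Fat cell RNA was present throughout, since Adipoq, the gene of the fat cell hormone adiponectin, read between 9.21 and 10.40 on every array. Whether other tissue was dissected with the fat pad is not known. Over all rows the arrays correlated with each other at 0.979 to 0.990. Results are also given with WT 2, WT 3 and Tg 2 as a block and in each set of 3 arrays, that set and the set of WT 1, Tg 1 and Tg 3. This comparison was chosen after the signals were seen. Cnn1 read only 4.17 in Tg 2, and the epididymis genes averaged only 1.57 in WT 2 and 1.21 in WT 3. The block thus joins arrays with unlike signals and cannot adjust for either signal. Each set has 1 array in 1 of its groups, so its values describe those arrays and do not test the genotype.

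**Figure D1:**
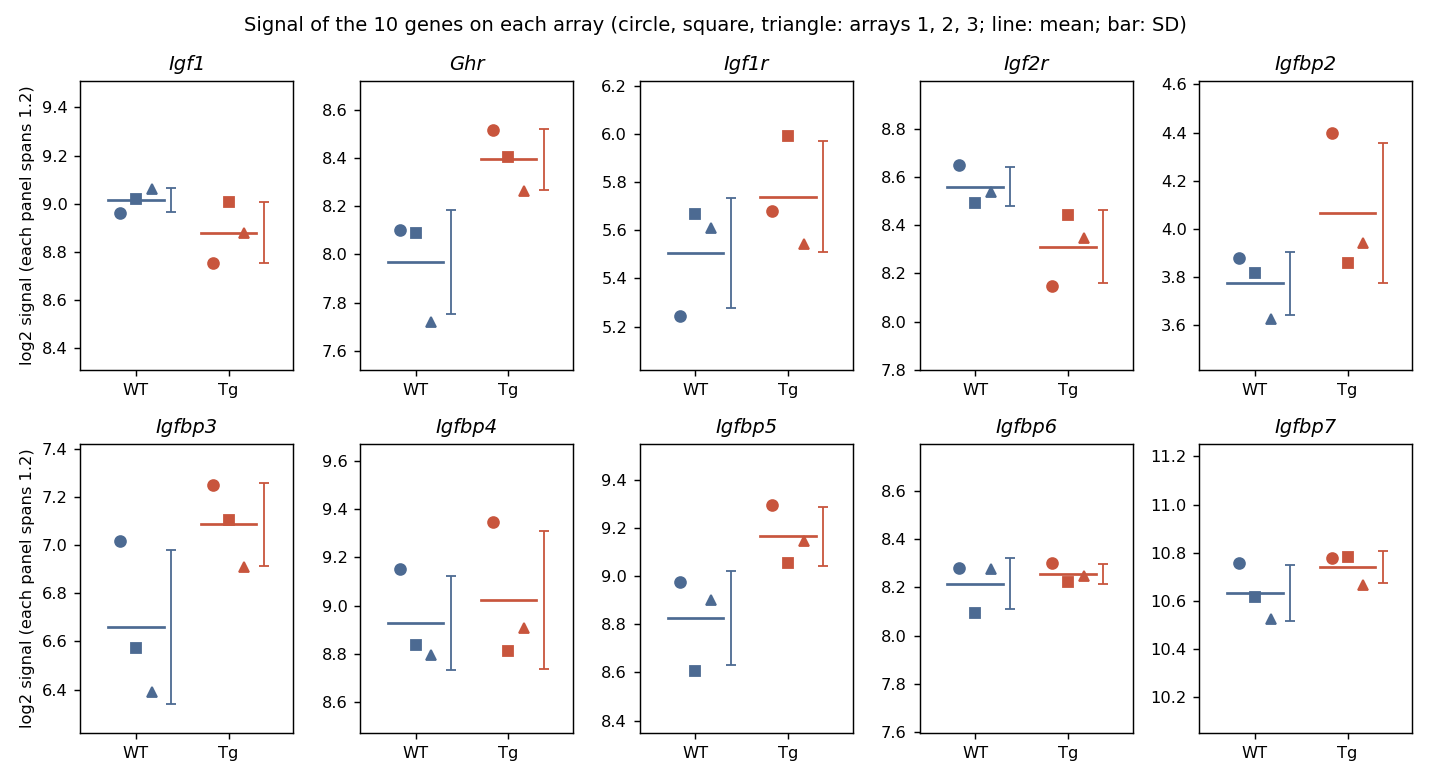
Log2 signal of the 10 genes on each array, with WT in blue and Tg in red. Circles, squares and triangles are arrays 1, 2 and 3 of a group, lines are group means, bars are SDs (n = 3), and each panel spans the same 1.2 log2 units. The groups are apart in Ghr, Igf2r and Igfbp5 and overlap in the other 7 genes.

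Values of single arrays are given below in the order of arrays 1, 2 and 3 of a group. Igf1, the ligand, read 8.96, 9.02 and 9.06 on the WT arrays and 8.76, 9.01 and 8.88 on the Tg arrays. The WT arrays lay close together, Tg 1 and Tg 3 lay below all of them, and Tg 2 lay within their range. The means were 9.02 ± 0.05 in WT and 8.88 ± 0.13 in Tg (SD, n = 3), a difference of -0.14 ± 0.11 (SE) with a 95% interval from -0.39 to 0.12 (adjusted p = 0.69 in limma). An exact 2-sided permutation test of the 6 arrays gave p = 0.2, where 0.1 is the smallest that this design allows. The interval covers no difference, a lower level in Tg by up to 0.39 and a higher level in Tg by up to 0.12. The difference was -0.15 in the set of WT 1, Tg 1 and Tg 3, -0.035 in the set of WT 2, WT 3 and Tg 2, and -0.073 without Tg 1.

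The array pattern of Igf1 was closest to that of Igf2r, with a root mean square distance of 0.094 on the log2 scale after each gene's own mean was subtracted. Outside the axis the nearest patterns among 12149 genes were those of Fbxl17 (0.020), Cep85 (0.023) and Thap3 (0.024). These distances are over 6 arrays, and the spread of Igf1 about its own mean was only 0.10.

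Ghr, whose product binds growth hormone at the cell surface, read 8.10, 8.09 and 7.72 on the WT arrays and 8.52, 8.40 and 8.26 on the Tg arrays. Every Tg array lay above every WT array, and WT 3 was the lowest by a wide margin. The means were 7.97 ± 0.22 in WT and 8.39 ± 0.13 in Tg (SD, n = 3), and the difference was 0.42 ± 0.14 (SE; 95% interval 0.08 to 0.77; adjusted p = 0.41 in limma; exact permutation p = 0.1). The difference was 0.29 in the set of WT 1, Tg 1 and Tg 3 and 0.50 in the set of WT 2, WT 3 and Tg 2. Without WT 3 it was 0.30.

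Fat cell genes also read higher in Tg. All 8 genes of a fat cell list had a higher mean in Tg, and the groups were apart in 6 of them (75%). Of rows at or above the median signal, where all 8 lie, 22.1% had groups apart. The mean of the list was 9.99 to 10.3 in the WT arrays and 10.4 to 10.7 in the Tg arrays. WT 3 was the lowest array and Tg 1 the highest in that list as in Ghr. The endothelial list given below had the same lowest and highest arrays. No gene of the fat cell list was near background, its dimmest being Lipe with a mean of 7.47. In whole tissue, fewer cells of a type and less RNA per cell cannot be told apart. The part of the fat cell or endothelial signal in the Ghr difference was not tested. The genes with the pattern nearest to that of Ghr were Anxa6, an annexin (distance 0.045), Acy3 (0.053) and Slc16a12 (0.055), where the spread of Ghr about its own mean was 0.26.

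Igf1r, the kinase receptor for IGF1, read 5.25, 5.67 and 5.61 on the WT arrays and 5.68, 5.99 and 5.54 on the Tg arrays. The groups overlapped, with WT 1 lowest and Tg 2 highest. The difference was 0.23 ± 0.17 (SE; 95% interval -0.18 to 0.64; adjusted p = 0.67 in limma), about the size of the SD of 0.23 within each group. It was 0.37 and 0.35 in the 2 sets of 3 arrays, and 0.36 ± 0.11 (adjusted p = 0.48) in limma with the set as a block, but 0.10 without WT 1 and 0.11 without Tg 2. The patterns nearest to that of Igf1r were those of Sytl2 (0.068), Tcf23 (0.071) and Mrps35 (0.090), over a spread of 0.22.

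Igf2r encodes the cation-independent mannose 6-phosphate receptor, which carries IGF2 to lysosomes for breakdown and delivers newly made lysosomal enzymes. It read 8.65, 8.49 and 8.54 on the WT arrays and 8.15, 8.44 and 8.35 on the Tg arrays. All Tg arrays lay below all WT arrays, although Tg 2 at 8.44 and WT 2 at 8.49 nearly met. The difference was -0.25 ± 0.12 (SE; 95% interval -0.52 to 0.03; adjusted p = 0.52 in limma; exact permutation p = 0.1). The groups overlapped once each array was centred on its median, where the difference was -0.18. In the set of WT 1, Tg 1 and Tg 3 the difference was -0.40 and in the other 3 arrays it was -0.073.

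Macrophage genes were also lower in Tg, in 9 of 10 genes of a macrophage list, 7 of them with the groups apart. Of rows at or above the median signal, 22.1% had groups apart in either direction. The mean of the list was 9.34 to 9.54 in the WT arrays and 9.15 to 9.30 in the Tg arrays. The exception was Cd163, a haemoglobin scavenger receptor of resident macrophages, which read 6.39 to 6.60 in WT and 6.96 to 7.36 in Tg. A mast cell list was lower in Tg by more, in 8 of 8 genes, all with the groups apart. Its median difference was -1.41, against -0.23 for the macrophage list. WT 3 was the highest array for the macrophage list and for Igf1, and WT 1 for Igf2r. Tg 1 was the lowest array for Igf1 and Igf2r, and Tg 2 for the macrophage list. The part of macrophage or mast cell RNA in the Igf1 and Igf2r values was not tested.

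**Figure D2:**
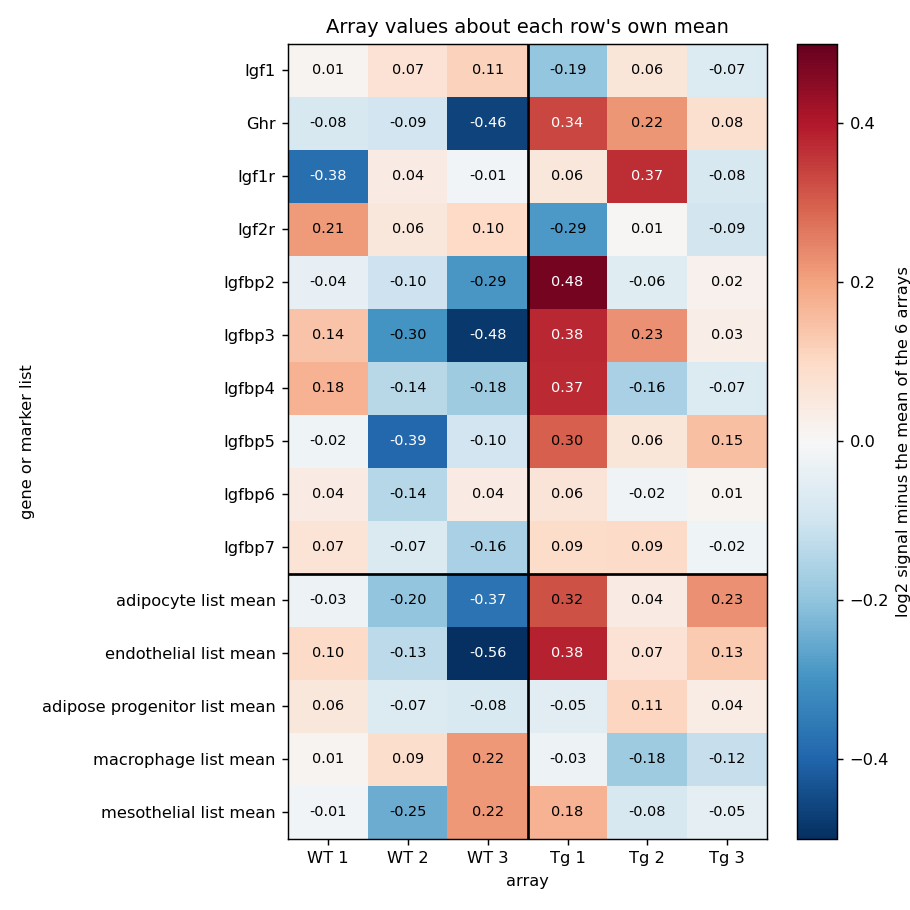
Log2 signal of each array minus the mean of the 6 arrays for the 10 genes (above the line) and for the mean of 5 marker lists (below it), in red where higher and blue where lower. Tg 1 is highest for Ghr and for Igfbp2 to Igfbp6 and lowest for Igf1 and Igf2r, and WT 3 is lowest for Ghr, Igfbp2, Igfbp3, Igfbp4 and Igfbp7 and for the adipocyte and endothelial lists.

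Igfbp3 encodes the main carrier of IGF1 in blood, where it joins IGF1 and the acid-labile subunit in a ternary complex. Its row read 7.02, 6.57 and 6.39 on the WT arrays and 7.25, 7.10 and 6.91 on the Tg arrays. WT 1 lay above Tg 3, so the groups overlapped. The difference was 0.43 ± 0.19 (SE; 95% interval -0.02 to 0.87; adjusted p = 0.50 in limma; exact permutation p = 0.2). It depended on the arrays compared, at 0.063 in the set of WT 1, Tg 1 and Tg 3 and 0.62 in the other 3 arrays. Endothelial genes also had higher means in Tg, in all 8 of an endothelial list. The groups were apart in 2 of the 8 (25%), near the 22.1% of rows at or above the median signal. The list mean was 7.20 to 7.86 in WT and 7.83 to 8.14 in Tg, with WT 3 lowest in the list and in Igfbp3. Tg 1 was highest in both, and the fat cell list had the same lowest and highest arrays. The part of endothelial or fat cell RNA in the Igfbp3 values was not tested.

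Igfbp5, a binding protein that attaches to extracellular matrix, read 8.97, 8.60 and 8.90 on the WT arrays and 9.29, 9.05 and 9.14 on the Tg arrays. Every Tg array lay above every WT array, with WT 1 and Tg 2 the closest pair. The means were 8.83 ± 0.20 in WT and 9.16 ± 0.12 in Tg (SD, n = 3), and the difference was 0.34 ± 0.13 (SE; 95% interval 0.01 to 0.66; adjusted p = 0.47 in limma; exact permutation p = 0.1). It was 0.25 in the set of WT 1, Tg 1 and Tg 3 and 0.30 in the other 3 arrays. The groups of Igfbp5, like those of Ghr, also stayed apart under each of 3 other normalizations of the arrays. Genes of stromal progenitors, a cell type that makes matrix, were split, with 5 of 9 measured genes higher in Tg and a list mean of 8.88 to 9.02 in WT and 8.91 to 9.07 in Tg.

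Igfbp2, a binding protein that leptin is known to induce in liver, was the dimmest of the 10 rows. It read 3.88, 3.82 and 3.63 on the WT arrays and 4.40, 3.86 and 3.94 on the Tg arrays. Tg 1 stood out, and Tg 2 lay below WT 1. The difference was 0.29 ± 0.17 (SE; 95% interval -0.11 to 0.70; adjusted p = 0.59 in limma) and was 0.13 without Tg 1. Its neighbour Igfbp5 also read highest in Tg 1, as did Igfbp3, Igfbp4, Igfbp6 and Ghr.

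The other 3 binding protein genes differed by less than or about their standard errors. Igfbp4, which holds IGF until the protease PAPP-A cleaves it, read 8.80 to 9.15 in WT and 8.81 to 9.35 in Tg, a difference of 0.09 ± 0.18 (SE; adjusted p = 0.88 in limma) that was -0.068 without Tg 1. Igfbp6, which prefers IGF2, read 8.09 to 8.28 in WT and 8.22 to 8.30 in Tg and had the smallest difference of the 10, 0.04 ± 0.10 (95% interval -0.20 to 0.28; adjusted p = 0.91). Igfbp7, a more distant relative with low affinity for IGF that is abundant in vessel walls, read 10.5 to 10.8 in WT and 10.7 to 10.8 in Tg, a difference of 0.11 ± 0.11 (95% interval -0.14 to 0.36; adjusted p = 0.75) that lay between 0.056 and 0.17 with 1 array left out. The intervals of Igfbp6 and Igfbp7 leave room for changes up to the values given and do not show equal levels.

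The arrays were not at the ends of the range equally often. Tg 1 was the highest or lowest array in 8 of the 10 genes, highest in 6 and lowest in 2, whereas it was at an end in 39.9% of all rows at or above the median signal. WT 3 was at an end in 6 genes, against 41.8% of those rows, and Tg 3 in 0, against 25.7%. Among the pairs of the 10 genes, the patterns of Igf1 and Igf2r were the closest (0.094), followed by Igfbp6 and Igfbp7 (0.10), Igfbp2 and Igfbp4 (0.12) and Igfbp3 and Ghr (0.13). Those of Igf2r and Igfbp3 were the farthest apart (0.40). These distances are descriptions over 6 arrays and are not scaled to the spread of a gene. Genes that vary little therefore lie close to each other even where their patterns differ. Igfbp6 and Igfbp7 ranged over only 0.21 and 0.26 across the 6 arrays.

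**Figure D3:**
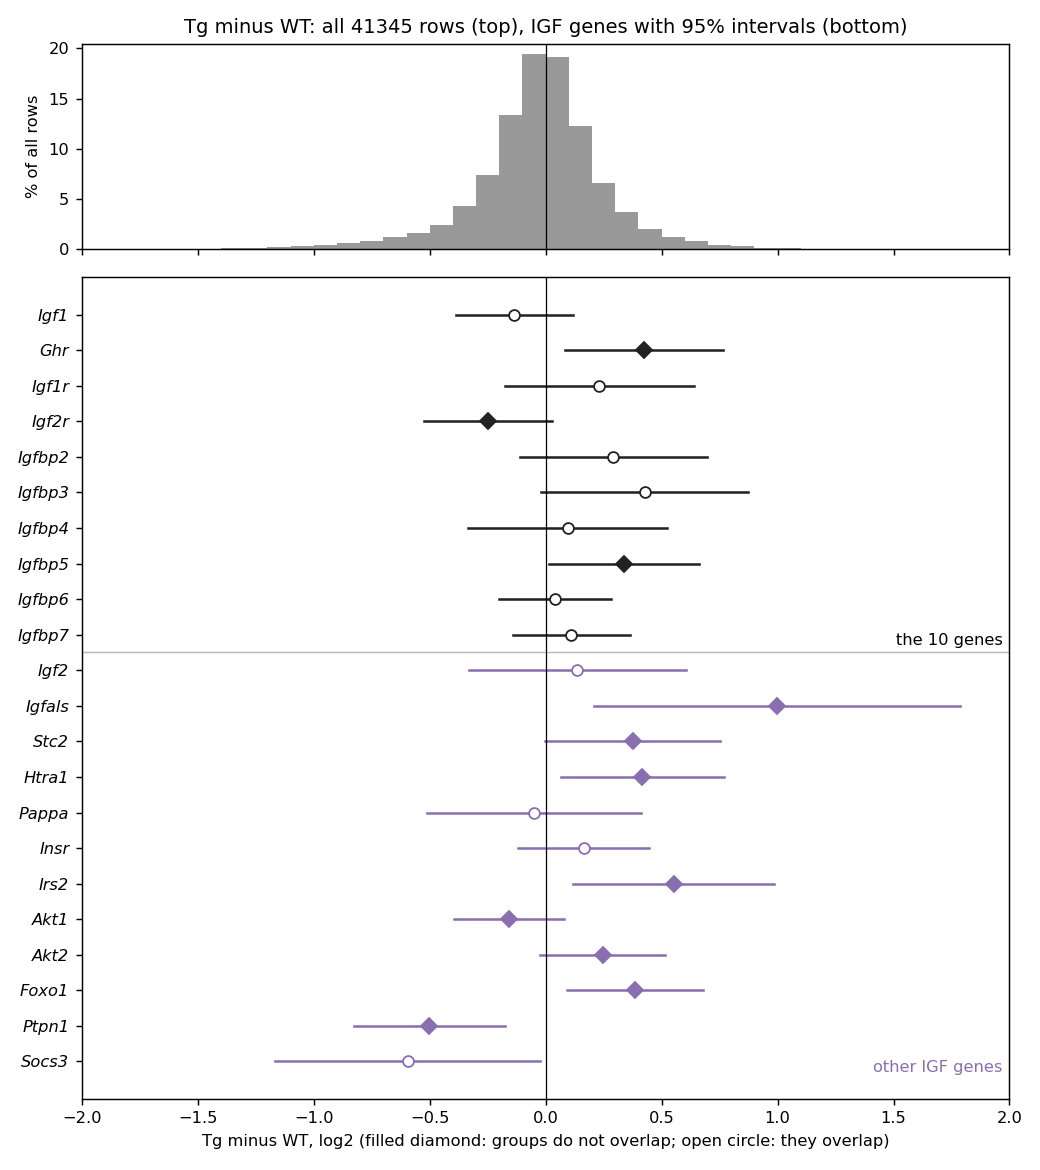
Tg minus WT on the log2 scale. The upper panel gives the share of all 41345 rows in steps of 0.1, and the lower panel the 10 genes (black) and 12 other genes of the axis (purple) with 95% intervals of the limma fit, unadjusted, where filled diamonds mark genes whose groups do not overlap. Ghr, Igfbp5, Igfals, Htra1, Irs2 and Foxo1 have intervals above 0 and Ptpn1 and Socs3 below 0, and no gene passed after adjustment over all rows.

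Of 35 further genes of growth hormone and IGF signalling, 33 had a row of their own, and 19 had a higher and 14 a lower mean in Tg, with a median difference of 0.03. None passed the threshold in limma (adjusted p from 0.35 to 0.995). At an unadjusted p under 0.05 in limma, 4 were higher and 2 lower, beside 10.3% of all rows in either direction. Of rows at or above the median signal 14.5% met that threshold. The groups did not overlap in 8, or 24.2%, beside 16.7% of all rows. That share is near the 22.1% of rows at or above the median signal, below which 5 of the 33 genes lie. The ligand genes other than Igf1 were dim. Igf2, the fetal growth ligand, read 3.34 to 3.67 in WT and 3.28 to 3.97 in Tg, and Gh, the growth hormone gene of the pituitary, 1.17 to 1.49 and 1.33 to 1.62, below the median row signal of 2.67.

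Several genes of the axis encode proteins that act on binding proteins outside the cell. Igfals, the acid-labile subunit that stabilises the complex of IGF1 and IGFBP3, read 4.81, 4.84 and 3.69 on the WT arrays and 5.62, 5.16 and 5.55 on the Tg arrays. All Tg arrays lay above the WT arrays, WT 3 was far below the rest, and the difference was 0.997 ± 0.33 (SE; adjusted p = 0.41 in limma) or 0.62 without WT 3. Htra1, a secreted serine protease that can cleave IGFBP5, read 7.03 to 7.35 in WT and 7.40 to 7.79 in Tg, a difference of 0.42 ± 0.15 (adjusted p = 0.43). Stc2, a stanniocalcin that inhibits PAPP-A, read 2.86 to 3.15 in WT and 3.15 to 3.64 in Tg, 0.37 ± 0.16 apart (adjusted p = 0.49), with WT 2 and Tg 1 all but equal. Pappa, the protease gene itself, was dim and read 2.31 to 2.96 in WT and 2.35 to 2.59 in Tg.

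Inside the cell the signalling genes showed differences in either direction. Irs2, an adaptor of the insulin and IGF1 receptors, read 6.98 to 7.67 in WT and 7.81 to 7.90 in Tg (0.55 ± 0.18 SE), Foxo1, a transcription factor that AKT keeps out of the nucleus, 7.07 to 7.17 and 7.28 to 7.64 (0.38 ± 0.12), and Akt2, the AKT form most used by insulin in fat, 7.24 to 7.43 and 7.46 to 7.71 (0.25 ± 0.11). These 3 genes had their groups apart, with adjusted p of 0.41, 0.40 and 0.52 in limma. Lower in Tg were Ptpn1, a phosphatase that switches off the insulin receptor, at 6.15 to 6.42 in WT and 5.57 to 5.92 in Tg (-0.50 ± 0.14, adjusted p = 0.35), and Akt1 at 8.29 to 8.39 and 8.06 to 8.24 (-0.16 ± 0.10, adjusted p = 0.62), both with groups apart. Socs3, an inhibitor of cytokine and growth hormone signalling, read 3.57 to 4.38 and 3.29 to 3.72 with overlap (-0.59 ± 0.24, adjusted p = 0.47). Foxo1 and Socs3 each have a dimmer second row, in which Tg minus WT was 0.89 ± 0.31 and -0.09 ± 0.13 (SE). The insulin receptor gene Insr differed by 0.16 ± 0.12 (adjusted p = 0.67), with Tg 2 below WT 1.

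**Figure D4:**
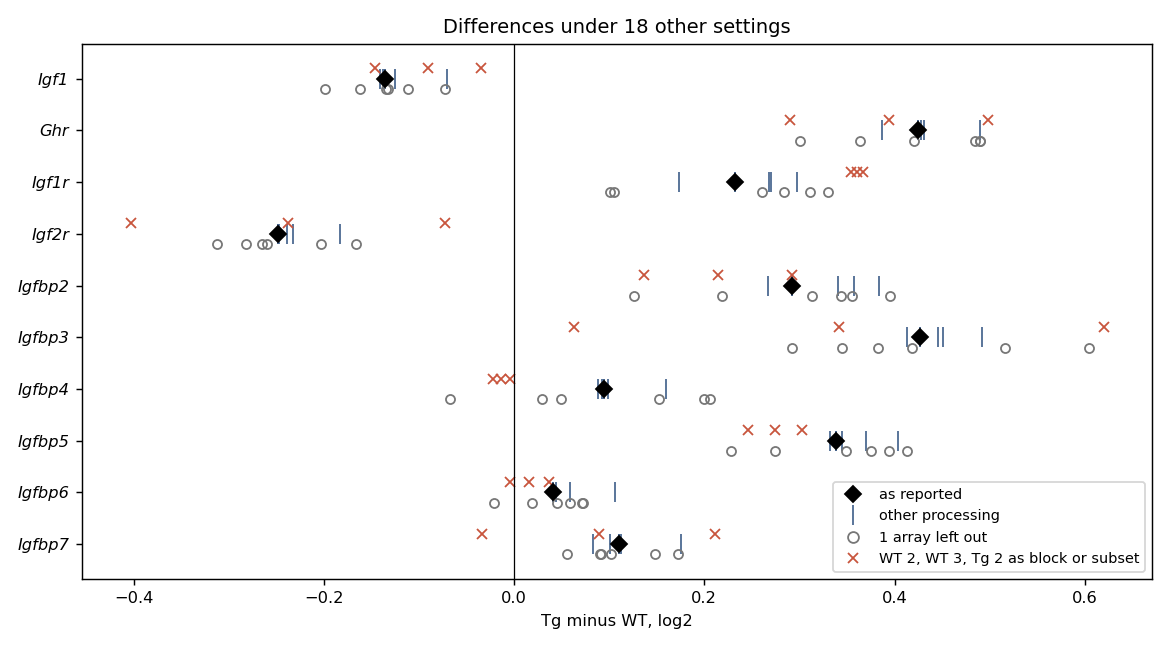
Tg minus WT of the 10 genes on the log2 scale as reported (black diamonds), under other processing (blue ticks), with 1 array left out (grey circles) and with WT 2, WT 3 and Tg 2 as a block or as a set of their own beside the other 3 arrays (red crosses). Ghr stays between 0.29 and 0.50 and Igfbp5 between 0.23 and 0.41, Igf2r lies between -0.40 and -0.073, and Igfbp4, Igfbp6 and Igfbp7 cross 0.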

How the data were processed

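Total RNA of eWAT, extracted with Trizol, was biotin-labelled with an Affymetrix whole-transcript kit, per the labels' protocols. Each row and array has 1 deposited log2 value, with array medians of 2.64 to 2.75. RMA and limma were named, per the submitters' processing notes, with versions, settings and build not given in the sources used here. Normalization between arrays hides any change in total RNA, and RMA compresses differences between low values. The number of arrays limits the precision.

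Tg was compared with WT with lmFit and eBayes of limma 3.58.1 under R 4.3.3 (2-sided, no filter or covariate) over all 41345 rows, with Benjamini-Hochberg adjustment over all of them, and the procedure was tested on simulated data. A gene was represented by its brightest row that names only it (23521 rows name 1 gene, 1814 several, 16010 none). The 10 genes, the list of 35 further genes and the marker lists were chosen with earlier results of these data known. Of the 35, those at an unadjusted p under 0.05 or with groups apart were named, with Igf2, Insr, Igfals, Pappa and Stc2 whatever they showed, and Gh was added after its values were seen. The nearest patterns were sought for Igf1, Igf1r and Ghr among named genes at or above the median row signal. Epididymis, fat cell, macrophage, progenitor, endothelial, smooth muscle, mesothelial and mast cell lists were measured. Their means were 5.20 to 5.66 in WT and 5.36 to 5.62 in Tg for 7 mesothelial genes, 5.86 to 6.90 and 4.93 to 5.43 for 8 mast cell genes, and 7.46 to 8.12 and 7.23 to 7.49 for 8 pericyte and smooth muscle genes. Alternatives left out each array, blocked on the replicate number, renormalized in 3 ways, filtered rows in 2 ways, changed the variance model and the array weights, and averaged the rows of a gene.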

Additional observations from a re-analysis of the deposited data

How the results depend on the processing

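Limma called 0 rows and 0 of the 10 genes under all 18 other settings, of which 15 were planned and 3, those on WT 2, WT 3 and Tg 2, were chosen after seeing the data. The number of the 10 genes at an unadjusted p under 0.05 was 2 as reported (Ghr and Igfbp5, beside 10.3% of all rows). It was 0 to 3 with 1 array left out (7.51% to 12.3%) and 4 with a trend and robust prior variance (10.9%). Under each of the 3 other normalizations it was 3, with Igfbp3 added (10.3% to 10.8%). The same 3 genes were counted with only rows that name 1 gene (11.6% of those rows) and with averaged rows (11.8% of genes). With WT 2, WT 3 and Tg 2 as a block it was 1 (9%), and that gene was Igf1r, not Ghr or Igfbp5. It was 0 with only WT 1, Tg 1 and Tg 3 (5.43%) and 1, Igfbp3, with only WT 2, WT 3 and Tg 2 (9.47%). In these 2 sets limma takes a lone array to vary like the others, so their counts say nothing about stability. It was 0 without WT 3 and 0 without Tg 1. The number whose groups do not overlap was 3 as reported, 3 to 7 with 1 array left out, and 6 and 8 in the 2 sets of 3 arrays, where 67.7% and 72.4% of all rows do not overlap.

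Igf1, Igf1r, Igf2r, Igfbp2, Igfbp3, Igfbp5 and Ghr kept their direction under all 18 settings, but not every setting could reverse it. Filtering or averaging rows, changing the variance model and blocking on the replicate number leave these differences as they are. In Igf2r, Igfbp5 and Ghr the groups were apart, so using fewer arrays, weighting them or blocking on their set could not reverse the sign. For these genes only the other normalizations tested the direction. Igfbp4 was -0.013 with WT 2, WT 3 and Tg 2 as a block. It was -0.023 with only WT 1, Tg 1 and Tg 3 and -0.0042 with only WT 2, WT 3 and Tg 2. With 1 array left out it lay between -0.068 and 0.21. With only WT 1, Tg 1 and Tg 3, Igfbp6 was -0.0043, Igfbp7 -0.034 and Igf2 -0.047. With 1 array left out, Igfbp6 lay between -0.021 and 0.073, Igf2 between -0.033 and 0.31 and Pappa between -0.17 and 0.16. Pappa was 0.015 with median centring, 0.011 with quantile normalization, 0.034 with that block and 0.14 with only WT 1, Tg 1 and Tg 3. Insr was -0.023 with only WT 2, WT 3 and Tg 2. The cause was not tested.

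The groups share replicate numbers, but nothing in the labels pairs the mice, and same-numbered arrays did not deviate together (r over all rows of -0.038, 0.0073 and -0.043). With the replicate number as a block 0 rows passed, 3 of the 10 genes had an unadjusted p under 0.05, beside 9.76% of all rows, and no call changed. With 3 arrays a group, differences as small as those of Igfbp4, Igfbp6 and Igfbp7 cannot be resolved.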
